A study of Homo sapiens with 30 samples.

Results

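The chromatin regions called for MBD3 and for TET2 were compared in HEK293T cells kept without auxin. Every region of both pooled peak lists was taken, 6608 for MBD3 and 1326 for TET2. These 7934 regions stand among 70565 regions in all 8 peak lists of the study. Rows of 1 list that touched by at least 1 bp had been joined, from 6736 rows for MBD3 and 1384 for TET2. An MBD3 and a TET2 region were taken as shared when they had at least 1 bp in common, and the remaining regions are called MBD3-only and TET2-only.

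MBD3 is part of NuRD, the nucleosome remodelling and deacetylase complex, which moves nucleosomes and removes acetyl groups from histones. It belongs to the methyl-CpG-binding domain family, although the mammalian protein binds methylated DNA poorly. TET2 oxidises 5-methylcytosine, the first step of active DNA demethylation, and unlike its relative TET1 it lacks the CXXC zinc finger that binds unmethylated CpG. CTCF, the zinc-finger protein at many chromatin loop anchors, and TET1 were precipitated from the same kind of culture, and their lists were used to describe what else was called at each region.

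HEK293T is an established human embryonic kidney line. In all cells of the study an edit makes CTCF degradable with auxin, and plasmids for ScFv-miniIAA7-mEGFP and AtAFB2-mCherry, the parts of the degradation system, had been transfected. The MBD3 and the TET2 group compared here held 3 samples each, kept for 72 h without the auxin indole-3-acetic acid (IAA), against 0.5 mM in the treated arm. One label names these cells as DMSO-treated, whereas the protocol names only medium without IAA. The cells carry the edit and the plasmids, so they are not plain HEK293T. The 3 samples of a group were pooled in 1 list with no value per sample, so there is no replicate error, no test was made, and the read depth is unknown. Intervals in the text are 95% intervals that cover counting error over regions only, since regions are positions and not replicates. Which control each list was called against is not given in the sources used. Overlap of separately precipitated populations does not show both proteins on the same DNA molecule.

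Most regions of either protein were not shared. TET2 was called at 418 of the 6608 MBD3 regions, 6.33% (5.76% to 6.94%), and MBD3 at 419 of the 1326 TET2 regions, 31.6% (29.2% to 34.2%). They form 420 overlapping pairs. The other 6190 MBD3 regions and 907 TET2 regions had no counterpart. In base pairs, the overlap of 85439 bp was 5.96% of the 1432960 bp covered by MBD3 and 29.06% of the 293961 bp covered by TET2. The lists differ in length, and with the 1326 regions of highest −log10 q in each list the shares were 9.05% and 9.20%. With almost 1 partner per region, lists of equal length must give nearly equal shares.

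The 420 pairs fell into 2 kinds by their fold enrichment, the ratio of signal over the control that the authors' peak caller gave each peak. In 362 pairs the fold was 3 or more in both lists, in 53 it was under 3 in both, and in 5 it was under 3 in 1 list. Fold is described only within a list. The shared regions of low fold had high significance. Their median was 1.87-fold with a −log10 q of 20.1 in the MBD3 list and 1.81-fold with 23.7 in the TET2 list. Of the 53 pairs, 16 lay on the mitochondrial chromosome, 6 each on chromosomes 2, 10 and 11, and 5 on contigs outside the numbered and sex chromosomes. All 14 mitochondrial MBD3 regions and all 16 mitochondrial TET2 regions were shared. TET1 was called at 51 of the 53 pairs, at 17 of them together with CTCF. The pair of highest MBD3 −log10 q lay at chr19:27731965-27732321 with 2.12-fold and a −log10 q of 248 for MBD3. Its TET2 region had 2.1-fold with a −log10 q of 307, and the summits lay 1 bp apart. This position was also called with IAA for CTCF, MBD3 and TET1. The next by MBD3 −log10 q were chr1:121485051-121485392, with 1.42-fold for MBD3 and 1.34-fold for TET2, and chr11:51579505-51579681, with 2.39-fold for MBD3. Their summits lay 5 and 2 bp apart, and only the first was called with IAA. Mappability at these positions was not tested, nor whether they are repeats where reads map to several places. The regions of low fold are therefore described only as entries of the lists. The main contrasts below are also given without regions of fold under 3.

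Low-fold regions were shared more often than the rest. Of the 88 MBD3 regions with fold under 3, 53 were shared (60.2%), against 365 of 6520 with fold of 3 or more (5.60%). In the TET2 list 56 of 102 (54.9%) and 363 of 1224 (29.7%) were shared. Without regions of fold under 3 in any list, 5.55% of MBD3 regions had TET2.

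Summits of paired regions, the points of highest signal, lay a median of 43 bp apart (36 to 50 bp), with quartiles of 16 and 90.25 bp and a maximum of 920 bp. They were within 50 bp in 232 pairs (55.2%) and within 200 bp in 392 (93.3%). In the 362 pairs of fold 3 or more the median was 50 bp (42 to 54 bp), and 57 of them (15.7%) had summits within 10 bp. In the 53 pairs of low fold it was 7 bp (4 to 13 bp), and 31 (58.5%) were within 10 bp, a difference of 42.7 percentage points (28.7 to 55.5). At a −log10 q of at least 10 in every list the median over the remaining pairs was 6 bp. Among the pairs of fold 3 or more, those with TET1 had a median of 39 bp (30 to 48 bp, n = 195) and those without TET1 58 bp (52 to 68 bp, n = 167). At CTCF the median of these pairs was 46.5 bp (34 to 54 bp, n = 132) and away from CTCF 52 bp (42 to 59 bp, n = 230), with intervals that overlap.

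**Figure D1:**
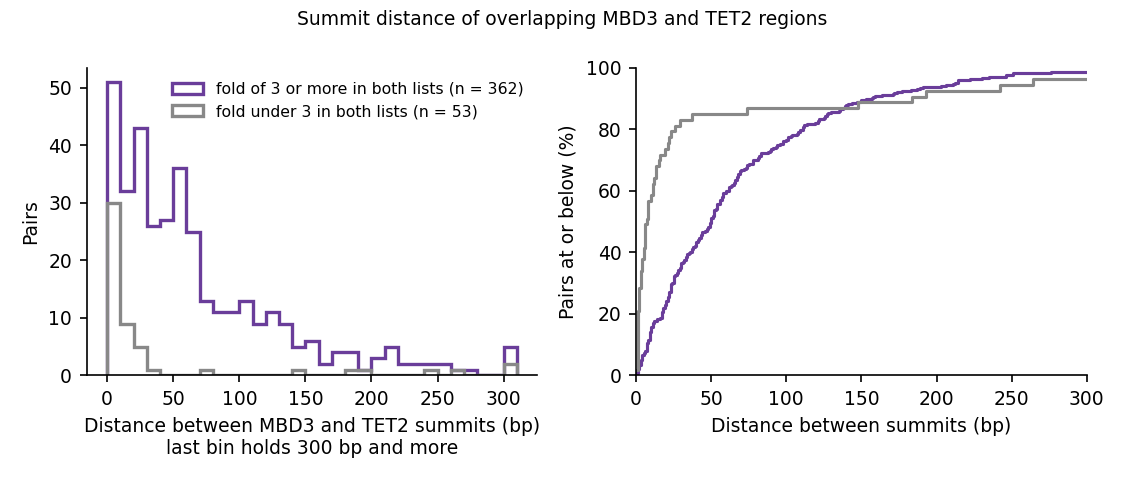
Distance in bp between the MBD3 and the TET2 summit of each overlapping pair, as counts in bins of 10 bp (left) and as a cumulative percentage of pairs (right). The 53 pairs with fold under 3 in both lists (grey) rise at once, with a median of 7 bp, while the 362 pairs with fold of 3 or more (purple) spread out with a median of 50 bp.

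The MBD3 region was usually the larger partner. It was the wider region in 311 of 420 pairs (74.0%), and the TET2 region lay wholly inside it in 182 (43.3%), against 35 (8.33%) the other way round. A median of 97.7% of the TET2 region and 68.1% of the MBD3 region was covered by the partner. The TET2 summit fell inside the MBD3 region in 380 pairs and the MBD3 summit inside the TET2 region in 353. The largest summit distance, 920 bp, belonged to a pair near the start of chromosome 5, at chr5:10082-11740, with a 1659 bp MBD3 region and a 1518 bp TET2 region. It was followed by chr1:236877018-236878323, with 646 bp between summits of nearly equal regions of 1306 and 1317 bp, and chr5:17379350-17379539, with 461 bp.

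CTCF and TET1 marked the 3 classes differently. A CTCF region lay at 57.8% of MBD3-only regions (3575 of 6190) and at 36.4% of shared MBD3 regions (152 of 418), a difference of -21.4 percentage points (-26.0 to -16.5). Without regions of fold under 3 it was -21.8 points (-26.7 to -16.6). With an overlap of 50% asked of every pair of lists, which also changes which regions count as at CTCF, it was -0.237 points (-4.80 to 4.91). With that overlap asked only of MBD3 and TET2 it was -21.0 points (-26.3 to -15.4). In the TET2 list, 36.0% of shared regions (151 of 419) and 35.7% of TET2-only regions (324 of 907) were at CTCF, a difference of 0.316 points (-5.15 to 5.92). It was 9.05 points (0.179 to 18.5) at a −log10 q of at least 5 and 16.5 points (7.34 to 25.6) with lists of equal length. Without regions called with all 4 antibodies, a filter that removes shared regions only, it was -26.7 points (-30.9 to -21.9). TET1 was called at 59.0% of shared TET2 regions (247 of 419) and 22.9% of TET2-only regions (208 of 907). The difference was 36.0 points (30.5 to 41.3), and 31.4 points (25.5 to 37.1) without regions of fold under 3. Between shared MBD3 regions (59.1%, 247 of 418) and MBD3-only regions (57.0%, 3527 of 6190) the difference in TET1 was 2.11 points (-2.82 to 6.89). It was -3.62 points (-8.91 to 1.61) without regions of fold under 3 and -27.2 points (-34.5 to -19.2) at a fold of 5 or more. The limits of fold and −log10 q above were set on every list, CTCF and TET1 included. They therefore also change which regions count as at CTCF or TET1. The parts of this TET1 difference at and away from CTCF had opposite directions.

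**Figure D2:**
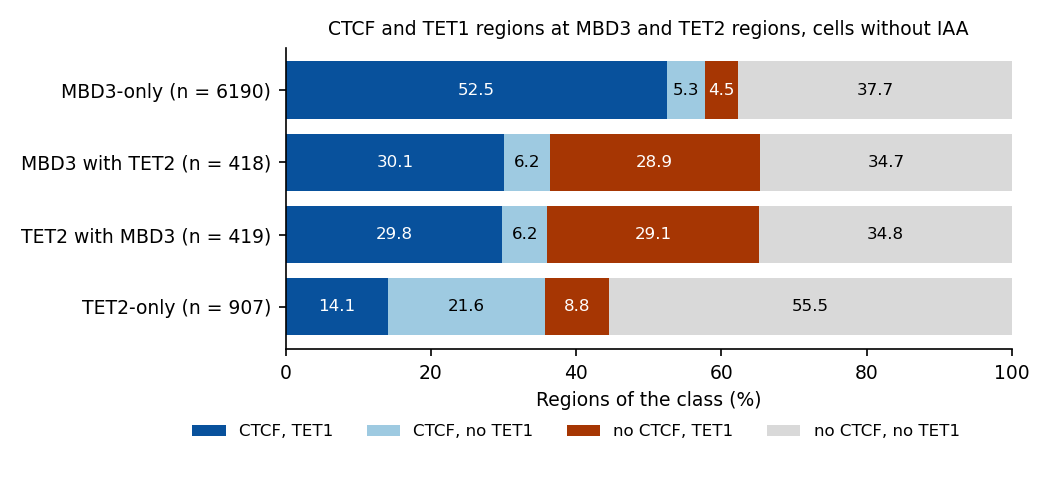
Percentage of MBD3-only, shared and TET2-only regions that overlapped a CTCF region, a TET1 region, both or neither in cells without IAA; each bar adds up to all regions of its class. Regions with TET1 but no CTCF make up 28.9% of shared MBD3 regions and 4.52% of MBD3-only regions, while regions with both make up 52.5% of MBD3-only and 14.1% of TET2-only regions.

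Away from CTCF, MBD3 regions with TET1 were the ones that most often had TET2. There 121 of the 401 with TET1 had TET2 (30.2%, 25.9% to 34.8%), against 145 of the 2480 without TET1 (5.85%), a difference of 24.3 points (19.9 to 29.1). With fold of 3 or more the shares were 24.5% (89 of 363) and 5.76% (142 of 2464). With an overlap of 50% asked of every pair of lists, CTCF and TET1 included, the difference was 0.756 points (-0.443 to 2.01), and asked only of MBD3 and TET2 it was 20.0 points (16.0 to 24.5). The odds ratio of having TET2 was 6.96 (5.31 to 9.13). Combined over 5 strata of MBD3 width it was 5.46, over 5 strata of fold 5.99, and over 5 strata of −log10 q 5.35.

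At CTCF the direction was reversed. Of 3373 MBD3 regions with CTCF and TET1, 126 had TET2 (3.74%), against 26 of 354 with CTCF but no TET1 (7.34%), a difference of -3.61 points (-6.86 to -1.22). With fold of 3 or more the shares were 3.23% (108 of 3341) and 7.39% (26 of 352). The odds ratio was 0.490 (0.316 to 0.758), and 0.725 (0.462 to 1.14) over 5 strata of the width of the MBD3 region, where the interval includes 1. With an overlap of 50% asked of MBD3 and TET2, the difference was -1.27 points (-3.96 to 0.496), an interval that includes 0. The odds ratio away from CTCF was 14.2 times (8.50 to 23.8) that at CTCF.

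Seen from the TET2 list, TET1 went with MBD3 in both settings. Away from CTCF, 122 of 202 TET2 regions with TET1 had MBD3 (60.4%) and 146 of 649 without TET1 (22.5%). At CTCF it was 125 of 253 (49.4%) and 26 of 222 (11.7%). These differences were 37.9 points (30.2 to 45.1) and 37.7 points (29.9 to 44.8). For TET2 regions of fold 3 or more they were 32.5 points (24.0 to 40.7) and 34.6 points (26.5 to 42.2). Among TET1 regions away from CTCF, TET2 was called at 116 of the 405 that had MBD3 (28.6%) and at 78 of the 1043 that had none (7.48%). Over all CTCF regions TET2 was rare, at 474 of 42925 (1.10%), with 4.33% where MBD3 was called and 0.798% where it was not.

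Where each summit lay relative to CTCF also separated the classes. MBD3-only summits at CTCF lay a median of 11 bp (11 to 12 bp, n = 3575) from the CTCF summit. In shared pairs of fold 3 or more, the MBD3 summit lay 44.5 bp from it (31 to 61 bp, n = 132) and the TET2 summit 54 bp (43 to 74 bp, n = 131). TET2-only summits were 87 bp away (75 to 100 bp, n = 324). To TET1 summits the distances were 12 bp for MBD3-only, 36 and 45 bp for MBD3 and TET2 in shared pairs of fold 3 or more, and 62.5 bp for TET2-only regions. Pairs of low fold differed from this. Their MBD3 summits lay 6 bp from the CTCF summit (3 to 26 bp, n = 17) and 5 bp from the TET1 summit (3 to 8 bp, n = 49). Their TET2 summits lay 11 bp (3 to 25 bp, n = 17) and 7 bp (3 to 12 bp, n = 51) away. Summits of shared regions of fold 3 or more thus lay between those of MBD3-only and TET2-only regions, and summits of low-fold pairs did not.

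Strength was compared as the percentile of fold within a list. Shared MBD3 regions had a median percentile of 49.4 and MBD3-only regions of 49.9, a difference of -0.48 (-3.14 to 4.63). Without regions of fold under 3 it was 5.07 (1.30 to 11.8), and with −log10 q as the measure 7.14 (1.76 to 12.1). The value of 7.14 includes the regions of low fold. With fold of 3 or more, the median −log10 q percentile was 53.0 (46.6 to 58.2) for shared MBD3 regions. For MBD3-only regions it was 50.9 (48.4 to 50.9), and these intervals overlap. By fold percentile the direction was opposite, at -22.4 (-44.2 to -2.39) and -49.0 (-52.3 to -45.8), among regions with a −log10 q of at least 5 and 10. Shared TET2 regions stood higher in their list, with a median percentile of 58.1 against 46.5 for TET2-only regions, a difference of 11.7 (6.48 to 16.5), and 16.1 (11.1 to 23.9) without regions of fold under 3. That order turned to -17.8 at a −log10 q of at least 5, to -45.0 at 10 or more and to -16.1 with lists of equal length. The pairs of low fold and high −log10 q pass those filters.

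**Figure D3:**
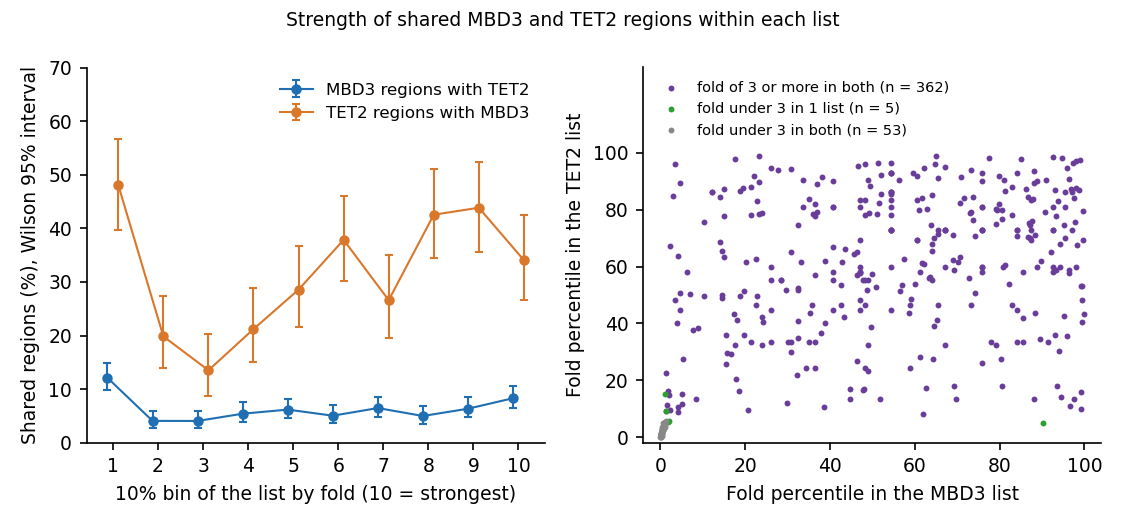
Left, percentage of MBD3 regions with TET2 and of TET2 regions with MBD3 in each of 10 equal bins of its own list by fold, with Wilson 95% intervals. Right, fold percentile of both partners of each pair, where the 53 pairs of low fold in both lists sit in the lower left corner, the 362 pairs of fold 3 or more in both are scattered with a Spearman correlation of 0.22, and 5 pairs have low fold in 1 list.

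Sharing in the weakest bin of each list depended on the regions of low fold, which all fall there. With each list cut into 10 bins by fold, the weakest MBD3 bin had the highest share, 12.1% (80 of 660), followed by 4.09% and 4.08%, and the strongest had 8.32% (55 of 661). In the TET2 list the weakest bin had 48.1% (62 of 129), the third 13.5%, the ninth 43.9% and the strongest 34.1%. Without regions of fold under 3, the weakest bin had 4.72% (27 of 572) in the MBD3 list, near the next bins, and 22.2% (6 of 27) in the TET2 list. With bins by −log10 q instead, the strongest bin had the highest share. In the MBD3 list it had 11.7% (77 of 661) and the weakest 3.64% (24 of 660). In the TET2 list it had 47.4% (63 of 133) and the weakest 23.6% (33 of 140). Most shared regions of low fold fall in these strongest bins. Their median −log10 q percentile was 98.3 in the MBD3 list (n = 53) and 95.6 in the TET2 list (n = 56). With fold of 3 or more it was 53.0 for shared and 50.9 for MBD3-only regions, and 50.8 and 48.7 in the TET2 list. The bins by −log10 q were not remade without regions of low fold. Across pairs the fold in both lists had a Spearman correlation of 0.49 (n = 420), which was 0.22 in the 362 pairs of fold 3 or more and 0.94 in the 53 pairs of low fold. Both values of a pair come from the same position of the same kind of cells, so these correlations describe positions and carry no test.

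Most of the strongest regions of either list were protein-specific, as were most regions of the whole lists. Of the 100 MBD3 regions of highest fold, 11 were shared and 90 were at CTCF. Over the whole MBD3 list 6.33% were shared and 3727 of 6608 were at CTCF. The first 3, all MBD3-only with CTCF and TET1, were chr4:25314153-25314579 with 16.7-fold, chr1:23866361-23866592 with 14.4-fold and chr1:66708420-66708649 with 14.0-fold. The best shared MBD3 region had rank 10 and 13.6-fold. Of the 100 strongest TET2 regions 30 were shared and 31 were at CTCF, and none of the first 10 was shared. The counts of 30 and 31 were near those of the whole TET2 list, with 31.6% shared and 475 of 1326 at CTCF. The TET2-only region of highest fold, chr2:174219127-174219618, had 45.3-fold with a TET1 region of 3.78-fold and no CTCF. The next, chr2:44588911-44589344 with 43.0-fold and chr1:228674573-228675064 with 39.0-fold, had neither CTCF nor TET1. The nearest MBD3 regions to these 3 lay 143500, 274300 and 13650 bp away. The best shared TET2 region had rank 14 and 16.2-fold.

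Pairs were also ranked by how high they stood in both lists. The first by the sum of percentiles was chr13:93495815-93496281, of rank 69 in the MBD3 list (10.7-fold) and of rank 35 in the TET2 list (8.98-fold). Its summits lay 22 bp apart, with a TET1 region of 8.53-fold and no CTCF. The second, chr13:63865919-63866144, had 10.1-fold for MBD3 and 8.81-fold for TET2, with both CTCF and TET1 and summits 9 bp apart. The next were chr4:183110695-183110999, chr7:24014-24445 and chr9:109789770-109790247, each with CTCF and TET1. The 3 pairs that stood highest in MBD3 relative to TET2 were chr2:209130592-209130885 (percentiles of 99.2 and 10.1), chr17:80317361-80318837 (96.5 and 10.8) and chr7:102212966-102213165 (90.2 and 4.98). In the other direction they were chr11:121107255-121107476 (3.55 and 96.2), chr1:63249581-63249844 (4.70 and 89.2) and chr1:234748390-234748600 (3.01 and 84.7). None of these 11 pairs was called in any list with IAA. This was the usual case, since 19 of all 418 shared MBD3 regions were, and 3 of the 365 with fold of 3 or more.

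Shared MBD3 regions were wide. Their median width was 266 bp (249 to 281 bp) against 186 bp (184 to 187 bp) for MBD3-only regions, a difference of 80 bp (63 to 95.1 bp). A wider region has more room to share a base. With sharing defined by summits within 200 bp the width difference was 73 bp (58 to 89 bp). That rule cannot separate the difference from this link, since 392 of the 420 overlapping pairs also meet it. The difference was 79.5 bp without regions of fold under 3, and 64.5 to 103 bp over all alternatives. Among TET2 regions the widths were 205 and 186 bp, a difference of 19 bp (8.18 to 30.2 bp). It was 16 bp (2.58 to 24.2 bp) without regions of fold under 3 and 0.5 bp (-16.7 to 15.7 bp) at a fold of 5 or more. Regions joined from 2 or more rows made up 10.5% of shared MBD3 regions (44 of 418) and 1.11% of MBD3-only regions (69 of 6190). In the TET2 list they made up 6.44% and 1.98%.

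Shared regions had closer neighbours of their own list. Another MBD3 region lay within 10 kb of 32.3% of shared MBD3 regions (135 of 418) and 16.2% of MBD3-only regions (1001 of 6190), a difference of 16.1 points (11.7 to 20.8). It was 8.22 points (4 to 13.0) without regions of fold under 3 and 3.52 points (-1.18 to 9.97) at a fold of 5 or more. Shared MBD3 regions of low fold lay a median of 1298 bp from the next. The median gaps were 34790 and 74240 bp. Without regions of fold under 3 the median gaps were 44000 bp (35430 to 55060 bp) and 74670 bp (71020 to 77300 bp). In the TET2 list the shares were 20.0% (84 of 419) and 8.60% (78 of 907), a difference of 11.4 points (7.37 to 15.9). That difference was 2.90 points (-0.387 to 6.75) without regions of fold under 3, and the shared TET2 regions of low fold lay a median of 1256 bp from the next.

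**Figure D4:**
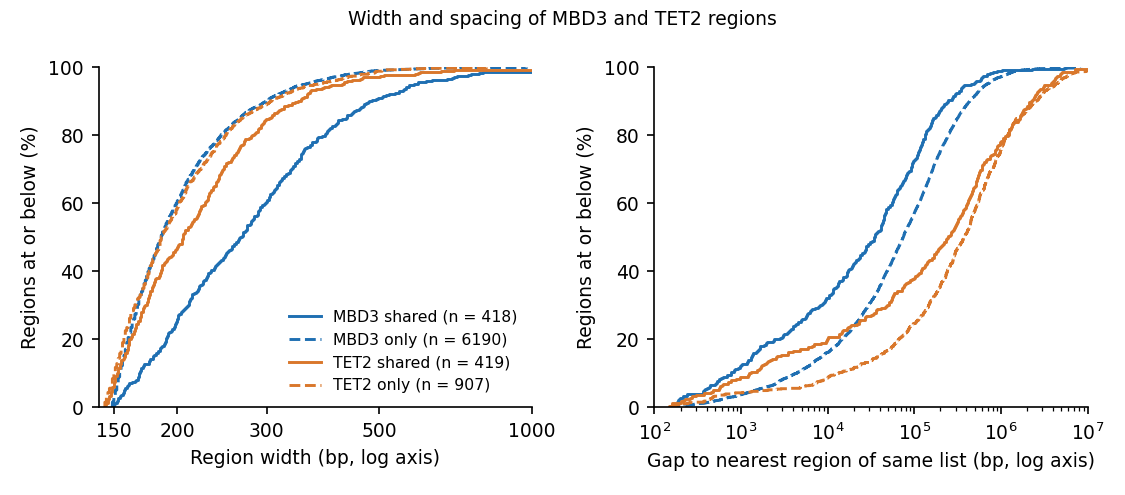
Cumulative percentage of regions by width in bp (left) and by the gap in bp to the nearest region of the same list (right), both on log axes, for shared regions (solid) and protein-specific regions (dashed). Shared MBD3 regions, with a median of 266 bp, stand apart from the other 3 curves of width, whose medians are 186, 205 and 186 bp; in the right panel both solid curves lie to the left of their dashed ones over most of the range.

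Most protein-specific regions had no region of the other protein within 10 kb. The nearest MBD3 region lay a median of 68140 bp from a TET2-only region, within 1 kb for 58 of 907 (6.40%) and within 10 kb for 157 (17.3%). From an MBD3-only region the nearest TET2 region was 463600 bp away, within 10 kb for 241 of 6190 (3.89%). The TET2 list is shorter, which lengthens the second distance. Within 1 kb it was 72 of them (1.16%). For comparison, the nearest other TET2 region lay a median of 369400 bp from a TET2-only region. Over all MBD3 regions the median gap to the next MBD3 region was 71380 bp.

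The pairs on chromosomes 1 to 22 and X were spread over 313 windows of 1 Mb, and 261 of these windows held 1 pair. The windows with most pairs were chr11:51000001-52000000 and chr9:82000001-83000000, with 7 each. The windows chr10:42000001-43000000 and chr2:92000001-93000000 followed with 6 each. On chromosomes 2, 10 and 11, 6 of the pairs in each window had fold under 3 in both lists. None did on chromosome 9, where the window held 20 MBD3 and 9 TET2 regions. The window chr13:67000001-68000000 held 40 MBD3 regions, the most MBD3-only regions of any window (36), and 4 pairs. Of MBD3-only regions 76.9% lay in windows with 3 or more of their class, and of TET2-only regions 19.8%. The first class has 6190 regions and the second 907, and the windows were not corrected for that.

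By chromosome, TET2-only regions were relatively frequent on chromosomes 14, 17, 19 and 22. Chromosome 19 held 5.18% of TET2-only regions (47 of 907) and 2.70% of MBD3-only regions (167 of 6190), a difference of 2.48 points (1.15 to 4.17), the largest of the 23 chromosomes compared. On chromosome 17 the difference was 2.14 points (0.600 to 4.01), on 14 it was 1.33 points (0.102 to 2.90) and on 22 it was 1.27 points (0.419 to 2.48). On chromosome 5 it was -1.82 points (-3.16 to -0.140). These intervals are not adjusted for the 23 comparisons. The chromosome 19 difference was 0.167 points at a −log10 q of at least 5, with an interval of -1.50 to 2.80.

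Shared regions did not follow TET2-only regions on chromosome 19. Chromosome 19 held 1.44% of shared MBD3 regions, a difference from TET2-only regions of -3.75 points (-5.56 to -1.66). That difference was -3.03 points (-5.31 to -0.357) on chromosome 17 and -1.60 points (-2.89 to -0.0124) on 22. On chromosome 14 it was -0.951 points (-2.98 to 1.52), an interval that includes 0. MBD3 was called at 31.6% of all TET2 regions. It was called at 11.3% of the 53 on chromosome 19 (5.29% to 22.6%) and at 7.69% of the 26 on chromosome 16 (2.14% to 24.1%). It was called at 47.5% of the 61 on chromosome 13 (35.5% to 59.8%). On chromosome 4 it was 40.2% of 92 (30.8% to 50.4%), an interval that includes the share of the whole list. Relative to MBD3-only regions, shared regions were more frequent on chromosomes 4 (2.91 points, 0.466 to 6.07) and 13 (2.38 points, 0.246 to 5.27). They were less frequent on chromosomes 3 (-2.03 points, -3.25 to -0.0201) and 16 (-1.51 points, -2.02 to -0.219). These intervals are also not adjusted for the number of chromosomes.

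**Figure D5:**
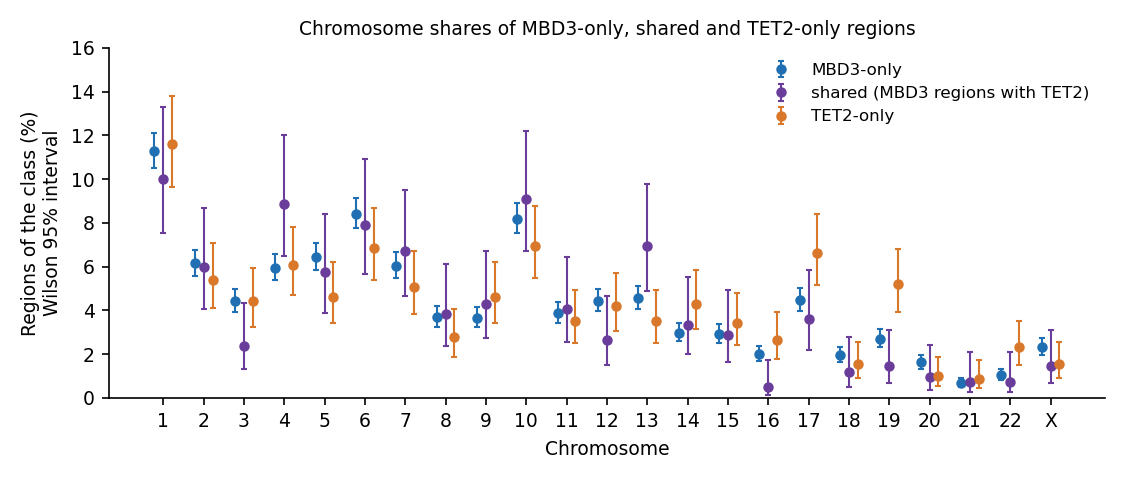
Percentage of MBD3-only (blue), shared (purple) and TET2-only (orange) regions on each chromosome, with Wilson 95% intervals. TET2-only regions stand above MBD3-only regions on chromosome 19 (5.18% and 2.70%), and shared regions above TET2-only regions on chromosome 13 (6.94% and 3.53%).

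Few regions of either protein were also called in any of the 4 lists of cells with IAA. Those lists held 63 regions for CTCF, 50 for MBD3, 325 for TET1 and 3022 for TET2. A short list limits how many regions can be called again. Among MBD3 regions it was 19 of 418 shared (4.55%) and 43 of 6190 MBD3-only regions (0.695%). With fold of 3 or more it was 3 of 365 and 40 of 6155, a difference of 0.172 points (-0.418 to 1.75). Among shared MBD3 regions of low fold it was 16 of 53. In the TET2 list 19 of 419 shared regions and 7 of 907 TET2-only regions were called with IAA, of which 2 and 4 had fold of 3 or more.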

How the data were processed

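The 8 deposited narrowPeak lists hold peaks called by the authors on the 3 pooled samples of each group. MACS2 2.1.2, bedtools 2.25.0, SAMtools 1.9, FastQC 0.11.7, Bowtie2 2.3.4 and the build hg19 are listed, without roles, per the submitters' processing notes. Per the authors' deposited lists, fold enrichment is a ratio over the control of the peak caller, significance is −log10 of the q-value (highest q 0.05 for MBD3 and 0.048 for TET2), and the summit is an offset from the peak start. These values of the authors were compared within 1 list at a time. Depth is unknown.

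A joined region took its summit from its most significant row and its fold and −log10 q from the highest row of each. Shares carry Wilson intervals, differences of shares Newcombe intervals, and medians order-statistic intervals, all at 95%, computed with Python 3.11.15, numpy 2.4.6, pandas 2.3.3 and scipy 1.17.1. Percentiles rank fold within a list. Odds ratios over 5 strata are Mantel-Haenszel estimates. The statistics were tested on simulated data. Named regions, on chromosomes 1 to 22 and X, are the 5 pairs highest in both lists, the 3 most unequal each way, the 3 strongest of each protein alone, the 3 of largest summit distance and the 3 of highest MBD3 −log10 q. The members, rules and settings were chosen with earlier results of these data known. The TET1 contrasts, the split at a fold of 3, the strata, the 1 Mb windows and the overlap of 50% between MBD3 and TET2 alone were added after seeing the data. Coordinates are hg19, counted from 1. Sequence and gene annotation of hg19 were not used here.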

Additional observations from a re-analysis of the deposited data

Results flagged for a closer look

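The link between TET1 and TET2 at MBD3 regions differed between regions at and away from CTCF. The odds ratio of having TET2 with TET1 was 14.2 times higher away from CTCF than at CTCF, with a 95% interval of 8.50 to 23.8. The interval is over regions of pooled lists, not over cultures. The ratio was above 1 in all 11 alternatives, and its interval lay above 1 in 10 of them. It was 1.51 (0.802 to 2.86) when 50% of both regions had to overlap for every pair of lists. That rule also changes which regions count as at CTCF or TET1, and used between MBD3 and TET2 alone it gave 10.6. Combined over 5 strata of MBD3 width, the odds ratio was 5.46 away from CTCF and 0.725 (0.462 to 1.14) at CTCF. Among TET2 regions, those with TET1 more often had MBD3, by 37.9 points away from CTCF and 37.7 points at CTCF.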

How the results depend on the processing

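Over 17 results, 146 of 205 alternative values kept their direction and side of the threshold or moved by less than their interval. The width of shared MBD3 regions and the excess of TET1 at shared over TET2-only regions kept theirs in all 12 alternatives. No paired analysis was possible because the 3 samples of each group are pooled in 1 list, and for the same reason no sample could be left out. Thresholds and equal numbers shorten the lists (to 159 TET2 regions at a −log10 q of 10), and dropping regions called with all 4 antibodies removes shared regions at CTCF with TET1 by construction. The thresholds also shorten the CTCF and TET1 lists, which changes which regions count as at CTCF or TET1. Otherwise the cause was not tested.

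The share of MBD3 regions with TET2 was 4.78% at an overlap of 50%, by either form of that rule, 3.67% and 4.65% at a −log10 q of at least 5 and 10, 5.55% and 3.69% at a fold of at least 3 and 5, 7.07% with single rows, 9.05% with equal numbers and 4.49% without regions called with all 4 antibodies. The share of TET2 regions with MBD3 was 23.8% at 50%, 27.6% at a −log10 q of 5, 29.1% at a fold of 5, 9.20% with equal numbers and 24.3% without the regions of all 4. The median summit distance was 33.5 bp at 50%, 19.5 and 6.0 bp at a −log10 q of 5 and 10, 65 bp with single rows and 18.5 bp with equal numbers.

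The MBD3 strength difference was 1.59 with summits within 200 bp, -22.4 and -49.0 at a −log10 q of 5 and 10, 5.07 and 7.29 at a fold of 3 and 5, 3.4 on chromosomes 1 to 22 and X, 7.14 by −log10 q and 1.79 without regions of the MBD3 or TET2 list with IAA. That of TET2 was -17.8, -45.0, 2.77 and -16.1 at a −log10 q of 5 and 10, a fold of 5 and equal numbers. The TET2 width difference was 25.5 and 22.5 bp at a −log10 q of 5 and 10, 0.5 bp at a fold of 5 and 10.0 bp without the regions of all 4, each with an interval that includes 0. The neighbour difference was 3.52 points for MBD3 at a fold of 5, and for TET2 2.90 and -0.365 points at a fold of 3 and 5.

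The CTCF difference from MBD3-only regions was -0.237 points at 50% for every pair of lists. The CTCF difference from TET2-only regions was 9.05, 16.5 and -26.7 points at a −log10 q of 5, equal numbers and without the regions of all 4. The TET1 difference from MBD3-only regions was -0.0998 with summits within 200 bp, -7.43 at a −log10 q of 5, -3.62 and -27.2 at a fold of 3 and 5, 5.78 with single rows, -9.63 with equal numbers and -15.7 without the regions of all 4. The chromosome 19 difference was 0.167 and 0.492 points at a −log10 q of 5 and 10, 1.50 at a fold of 5 and 0.670 with equal numbers. The TET1 contrast at MBD3 regions away from CTCF was 0.756 points at 50% for every pair of lists, against 20.0 with the rule between MBD3 and TET2 alone. At CTCF these were -1.22 and -1.27 points.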
